A study of Mus musculus with 29 samples.

Results

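The livers of 8 mice fed a high-fat diet with marine omega-3 phospholipids were compared with the livers of 7 mice fed the high-fat diet alone, which makes 15 of the 29 arrays of the series. These arrays were chosen by their titles and not by any measured value. All mice were male, of the strain C57BL/6N and 3 months old when the diets began. The control diet (cHF) was rich in fat from corn oil, and it was eaten freely for 7 weeks. In the diet called cHF+PC, an EPA and DHA concentrate replaced about 7% of the dietary lipid in the form of phospholipids, mostly phosphatidylcholine. The remaining arrays come from mice that also received a low dose of rosiglitazone, a drug that activates PPAR-gamma, without (cHF+R, 6 livers) or with the phospholipids (cHF+PC+R, 8 livers). No group without the high-fat diet was analysed here, so the values compare diets with each other and not with chow. The sources describe the storage of the tissue in different ways, as snap-frozen and as kept in RNAlater.

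The liver makes most of its cholesterol and fatty acids from acetyl-CoA. The sterol-sensing transcription factors encoded by Srebf1 and Srebf2 switch on the enzymes of both routes, and Srebf2 is the main regulator of cholesterol synthesis. Another set of receptors, led by PPAR-alpha (Ppara), binds fatty acids and drives their oxidation. Its usual targets in mouse liver include the Cyp4a omega-hydroxylases and the peroxisomal enzyme Ehhadh. Long-chain omega-3 fatty acids are known both to lower the activity of the first system and to bind the second.

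Each liver's RNA was labelled with Cy5 and hybridised against a Cy3-labelled pool of all samples. A level below is therefore the log2 ratio of a liver to that pool, and a change is the difference of the group means on this log2 scale, cHF+PC minus cHF, with its standard error (SE). A lone number in parentheses after a change is its adjusted p from limma. The share of spots well above background in Cy5 was 80.8% on the array of cHF replicate 4 and 56.4% to 61.4% on the other 14 arrays of these diets. The median correlation of the log2 ratios between arrays was 0.45 within cHF, 0.37 within cHF+PC and 0.22 between them. No slide (8 in all) carried a diet more than once, and 7 slides carried both diets, so each difference was also taken within slides. Each array holds the RNA of a whole liver sample, in which fewer cells of a type and less RNA per cell cannot be told apart.

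Of 19463 genes tested, 351 rose (1.8%) and 416 fell (2.14%) with phospholipids at an adjusted p under 0.05, which is 767 genes or 3.94% in all. Most of these changes were small. Only 46 of the rising and 90 of the falling genes changed by 1.5-fold or more. The ranges of the livers did not overlap between the diets in 278 genes (1.43%), of which 127 (0.653%) were higher and 151 (0.776%) lower with phospholipids. The number that passed depended strongly on how the arrays were scaled. With median centring in place of loess 10 genes passed, and with a scaling between arrays after loess 255 passed, while the authors' deposited table gave 1132. Without cHF+PC replicate 4 the number was 439 and without cHF replicate 5 it was 486. Among the genes named below, Krt23, Cyp4a10, Cyp4a31, Cyp4a32, Apoa4 and Dntt passed also with median centring. Every list described below other than the Cyp4 genes, the apolipoproteins and the keratins then had 0 calls.

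The enzymes of cholesterol synthesis moved together and down. Of the 20 enzymes tested, 18 fell and none rose, against 2.14% of all genes that fell, and their median log2 change was -0.73, against 0.00067 over all genes tested. The ranges of the 2 diets did not overlap in 9 of the 20, against 1.43% of all genes. Squalene epoxidase (Sqle), which oxidises squalene and is a rate-limiting step of the pathway, had the largest change. Its log2 ratio ran from 0.055 to 1.03 (median 0.54) in the 7 cHF livers and from -3.05 to -0.11 (median -1.94) in the 8 cHF+PC livers, a change of -2.26 ± 0.425 (SE; adjusted p = 0.00222), or 4.78-fold lower. Farnesyl diphosphate synthase (Fdps) ran from 0.087 to 0.68 (median 0.43) in cHF and from -1.78 to -0.28 (median -1.17) in cHF+PC, with a change of -1.47 ± 0.211 (SE; adjusted p = 9.16e-05). Neither gene's lowest cHF liver came down to the highest cHF+PC liver.

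The fall held from the early mevalonate steps to the last sterol steps. Phosphomevalonate kinase (Pmvk) fell by 1.12 and mevalonate diphosphate decarboxylase (Mvd) by 1.26. Idi1, the isopentenyl diphosphate isomerase, fell by 1.57, and Fdft1, which makes squalene, fell by 0.94, though its other probe changed by -0.16. The sterol C4 oxidase Msmo1 fell by 1.30 and the sterol C5 desaturase Sc5d by 0.64. Hmgcs1, which makes HMG-CoA, was not among the tested genes because outlier marks of the scanner software left a value on only 13 of the 29 arrays. With those spots kept, its change was -1.60 ± 0.289 (adjusted p = 0.00136). Acat2, the cytosolic thiolase that joins acetyl-CoA units, had a change of -0.078 (adjusted p = 0.47), and Ggps1, which leads to a non-sterol branch, one of 0.051 (adjusted p = 0.681). These were the 2 of 20 enzymes that did not pass.

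**Figure D1:**
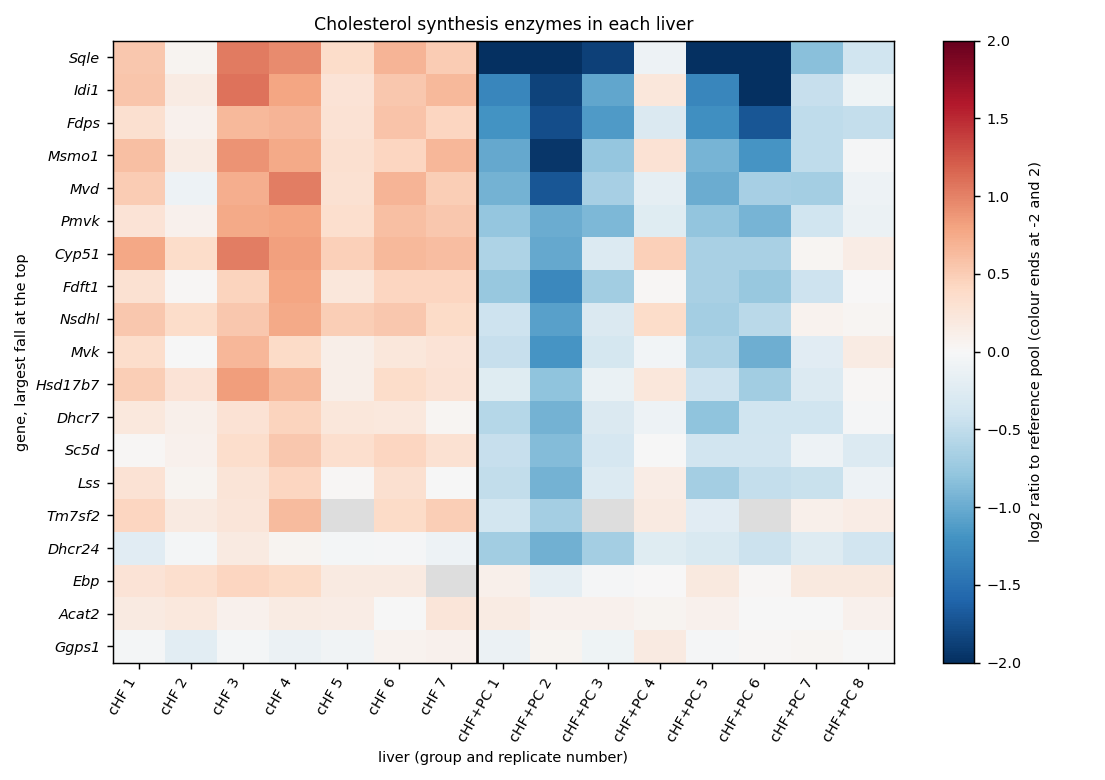
Log2 ratio to the reference pool of 19 of the 20 cholesterol synthesis enzymes tested (rows, largest fall at the top) in each of the 15 livers (columns, by group and replicate number), as a colour that ends at -2 and 2, with grey where a spot was marked as an outlier. The cHF+PC columns are mostly blue, with replicate 2 the deepest, and replicates 4 and 8 the palest.

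The livers on phospholipids differed from each other more than the controls did. The mean log2 ratio of the list was 0.33, 0.11, 0.57, 0.58, 0.24, 0.38 and 0.34 in cHF replicates 1 to 7, and -0.64, -1.09, -0.52, 0.075, -0.64, -0.77, -0.26 and -0.061 in cHF+PC replicates 1 to 8. The groups did not overlap, but cHF+PC replicate 4 lay just below the lowest control, and replicate 8 was next. Sqle showed nearly the same order, with -2.16, -3.05, -1.86, -0.11, -2.02, -2.89, -0.84 and -0.41 in cHF+PC replicates 1 to 8. Over the 18 enzymes that fell, replicate 2 was the lowest cHF+PC liver for 17, and replicate 4 the highest for 13 and replicate 8 for 5. The SD was larger in cHF+PC than in cHF for 18 of the 20 enzymes, compared with 51.9% of all genes tested, 73.3% of the genes that fell and 65.0% of those that rose. The fall was nonetheless not set by 1 liver, since 15 to 18 enzymes fell when each array was left out in turn, and the list's median was lower in 7 of 7 slides. The calls did depend on the scaling, since 0 of the 20 fell at the threshold with median centring (median -0.74) and 5 with a scaling between arrays (median -0.98).

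The promoters of these enzymes are shown because the genes moved together. RefSeq's promoters (build GRCm38.p6) were read from 250 to 1 bases before the gene's start, on both strands, and 15 of the 20 tested enzymes had one. The letters CCAATCA, the binding site of the factor NF-Y, which acts beside the sterol-sensing factors, were found in 10 of 15, or 66.7%. The same letters were in 8.38% of 27025 promoters and in 10.3% of those of the tested genes. The classical sterol response element TCACNCCAC was in 0 of 15 and in 1.23% of all promoters, and its shorter core CACNCCAC, which that element contains, in 1 of 15 (Acat2) and in 6.05% of all. A match is a description of these letters only. Below are the promoters of the 4 enzymes with this NF-Y match and the smallest adjusted p, a set picked after the matches were known, and then of Acat2 and of Insig1, a gene of the sterol sensing list, which both held the core element. Capitals mark CCAATCA or CACNCCAC, or their reverse complements.
Sc5d: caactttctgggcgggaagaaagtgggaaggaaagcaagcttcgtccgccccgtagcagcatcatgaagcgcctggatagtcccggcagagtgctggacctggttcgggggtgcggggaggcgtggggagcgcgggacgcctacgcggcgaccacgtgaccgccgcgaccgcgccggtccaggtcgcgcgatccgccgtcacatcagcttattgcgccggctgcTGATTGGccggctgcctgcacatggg
Mvd: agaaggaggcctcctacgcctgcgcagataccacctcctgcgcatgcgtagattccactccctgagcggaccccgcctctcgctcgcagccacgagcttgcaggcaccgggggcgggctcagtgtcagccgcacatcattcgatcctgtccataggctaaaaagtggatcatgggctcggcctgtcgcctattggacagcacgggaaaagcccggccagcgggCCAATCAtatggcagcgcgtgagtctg
Idi1: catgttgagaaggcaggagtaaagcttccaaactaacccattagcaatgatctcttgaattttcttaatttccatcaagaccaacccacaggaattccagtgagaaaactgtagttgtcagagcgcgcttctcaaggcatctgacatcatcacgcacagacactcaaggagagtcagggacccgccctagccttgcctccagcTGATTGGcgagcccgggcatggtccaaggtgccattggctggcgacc
Dhcr7: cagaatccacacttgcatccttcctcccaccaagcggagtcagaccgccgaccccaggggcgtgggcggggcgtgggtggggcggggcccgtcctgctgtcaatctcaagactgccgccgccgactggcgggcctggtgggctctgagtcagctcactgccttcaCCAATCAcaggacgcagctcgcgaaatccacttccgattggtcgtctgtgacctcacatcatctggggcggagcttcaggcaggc
Acat2: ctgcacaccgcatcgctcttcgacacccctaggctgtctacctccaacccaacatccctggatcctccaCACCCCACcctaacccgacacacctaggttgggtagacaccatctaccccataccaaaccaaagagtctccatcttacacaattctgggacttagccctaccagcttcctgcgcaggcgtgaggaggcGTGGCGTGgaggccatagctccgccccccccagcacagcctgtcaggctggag
Insig1: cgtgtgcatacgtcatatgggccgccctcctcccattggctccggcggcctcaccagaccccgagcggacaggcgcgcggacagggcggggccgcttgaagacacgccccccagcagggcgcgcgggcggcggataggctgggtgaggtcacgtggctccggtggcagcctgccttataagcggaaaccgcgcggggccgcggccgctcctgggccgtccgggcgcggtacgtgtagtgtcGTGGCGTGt
They lie at chr9:42264301-42264550 (minus strand) for Sc5d, chr8:122443423-122443672 (minus strand) for Mvd, chr13:8885356-8885605 (plus strand) for Idi1, chr7:143829964-143830213 (plus strand) for Dhcr7, chr17:12960726-12960975 (minus strand) for Acat2 and chr5:28071162-28071411 (plus strand) for Insig1. In Sc5d, Mvd, Idi1 and Dhcr7 the NF-Y letters start between -85 and -26 from the gene's start. Dhcr7 encodes the last reductase of the pathway and changed by -0.66 ± 0.135 (SE; adjusted p = 0.00458). Dhcr7 has 3 starts in the table, of which 1 is shown.

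The genes of sterol sensing and uptake had calls in both directions. Of 15 tested, 3 rose and 1 fell, against 1.8% and 2.14% of all genes, and the median was -0.0039. Without any 1 of cHF replicates 1, 3, 5 and 7 and cHF+PC replicates 2, 3 and 4 only 1 rose. With a scaling between arrays 1 rose and 1 fell. Scarb1, the HDL receptor, rose by 0.32 ± 0.0706 (SE; adjusted p = 0.00785). The regulators themselves did not pass, with -0.16 ± 0.0816 for Srebf2 (adjusted p = 0.308) and -0.40 ± 0.133 for Insig1 (0.0878). Insig1 retains the sterol sensor in the endoplasmic reticulum.

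The LXR and sterol efflux list included calls in the other direction from the synthesis enzymes. Of its 6 genes 3 rose and none fell, against 1.8% of all genes that rose, with 0 with median centring and 1 with a scaling between arrays. Abcg5 and Abcg8 together encode the transporter that moves cholesterol into bile. Abcg5 ran from -0.96 to -0.56 (median -0.65) in cHF and from -0.08 to 0.72 (median 0.051) in cHF+PC, a change of 0.90 ± 0.139 (SE; adjusted p = 0.000258), and Abcg8 changed by 0.74 ± 0.117 (SE; adjusted p = 0.000328). All cHF+PC livers lay above all cHF livers for both genes. Abca1, which loads HDL, changed by 0.30 ± 0.0802 (SE; adjusted p = 0.0313), a call lost without any 1 of 8 arrays (adjusted p up to 0.0737). The probes of Abcg5 (chr17:85057593-85057652) and Abcg8 (chr17:85098745-85098804) lie near each other in build mm9, as the genes are neighbours.

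Several genes of fatty acid synthesis fell too. Of 10 genes, 5 fell and none rose, against 2.14% of all genes that fell. The median was -0.58, and 3 fell without cHF replicate 4. None passed with median centring (median -0.70) or with a scaling between arrays (median -1.02). Acacb, the acetyl-CoA carboxylase isoform of the mitochondrial surface, ran from -0.36 to 0.42 (median -0.03) in cHF and from -2.22 to -1.002 (median -1.38) in cHF+PC, a change of -1.43 ± 0.249 (SE; adjusted p = 0.00111). Its groups did not overlap, but its other probe changed by only -0.47. Fasn, the fatty acid synthase, ran from -0.18 to 0.82 (median 0.48) in cHF and from -1.87 to -0.21 (median -0.68) in cHF+PC, a change of -1.21 ± 0.272 (SE; adjusted p = 0.0087), also with no overlap. Acly, which makes cytosolic acetyl-CoA from citrate, changed by -0.98 ± 0.17 (SE; adjusted p = 0.00119), with values on 6 cHF arrays, and its other probe by -0.21. Acaca, the cytosolic carboxylase, had a change of -0.34 ± 0.138 that did not pass (adjusted p = 0.174). The regulator Srebf1 was at 0.066 ± 0.155 (adjusted p = 0.875), with values from -0.18 to 0.13 (median -0.041) in cHF and from -0.79 to 0.43 (median 0.12) in cHF+PC.

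The malic enzyme Me1, a source of NADPH for lipogenesis, was the 1 of 7 genes of NADPH supply that passed, against 3.94% of all genes. Its change was -1.20 ± 0.281 (SE; adjusted p = 0.0128), with no overlap of the groups. All 14 desaturases and elongases tested had a lower mean with phospholipids, and 5 of them fell, against 2.14% of all genes. With a scaling between arrays 2 of them fell. Elovl5, which extends polyunsaturated fatty acids, changed by -1.14 ± 0.185 (SE; adjusted p = 0.000944) and had values on 6 arrays of each diet. Elovl2, which acts on longer ones, changed by -0.49 ± 0.103 (SE; adjusted p = 0.00547). Their cHF+PC livers all lay below their cHF livers. Fads1, the delta-5 desaturase, changed by -0.44 ± 0.102 (SE; adjusted p = 0.0125), while Fads2, the delta-6 desaturase, was at -0.16 ± 0.143 (0.593). Scd1, the stearoyl-CoA desaturase, had a wide spread, from -1.96 to 0.28 (median -0.66) in cHF and from -3.15 to -0.28 (median -1.75) in cHF+PC, and its change of -0.90 ± 0.448 did not pass (adjusted p = 0.283).

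**Figure D2:**
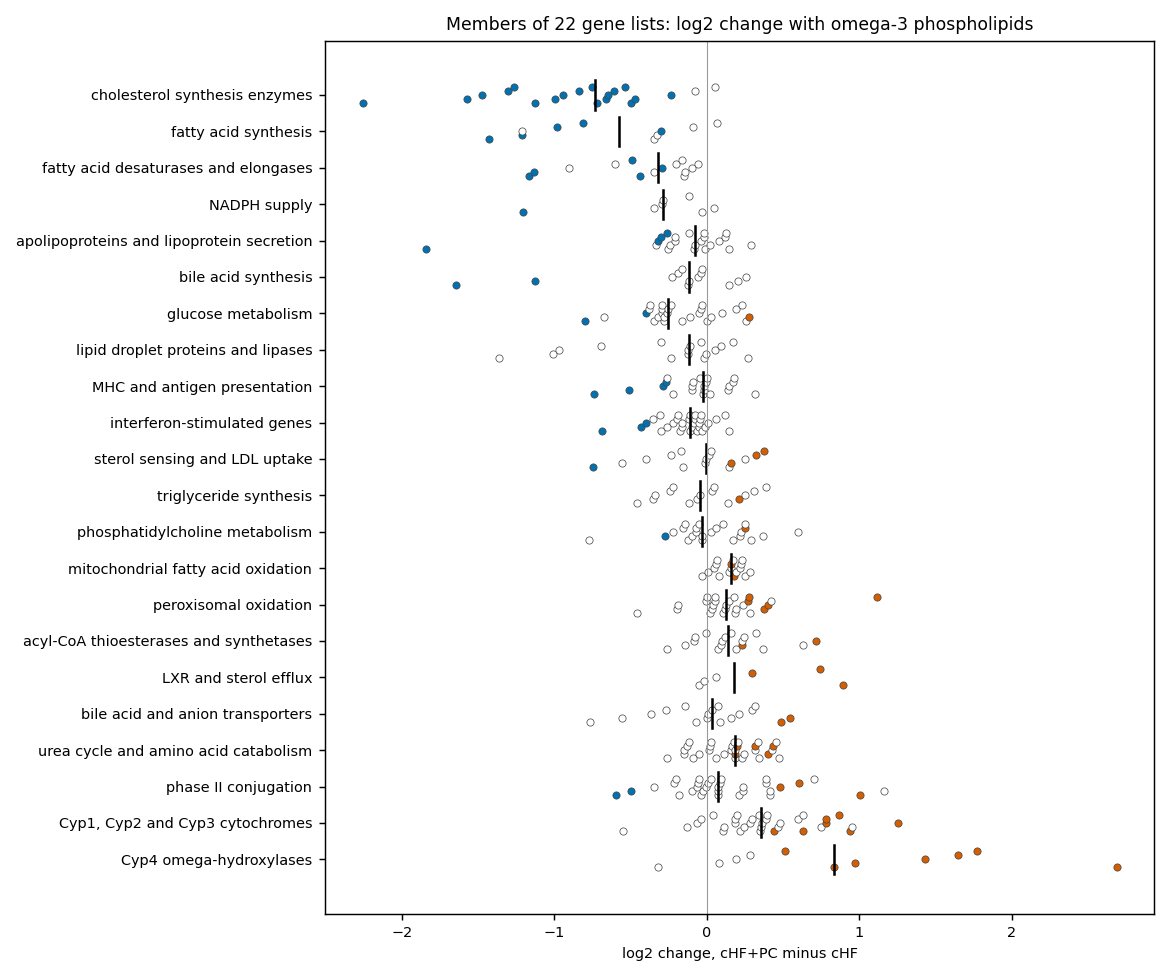
Log2 change (cHF+PC minus cHF) of every tested member of 22 gene lists, 1 point per gene, filled orange if it rose and blue if it fell at an adjusted p under 0.05, and white otherwise, with a black bar at the list's median. The cholesterol list lies left of 0 but for Ggps1, and the Cyp4 list reaches 2.69 on the right.

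Among 22 genes of apolipoproteins and lipoprotein secretion 4 fell and none rose, against 2.14% of all genes that fell. Without any 1 of cHF replicates 3, 4 and 5 and cHF+PC replicates 2, 3 and 4 only 2 fell, and with median centring or a scaling between arrays 1. The largest change was that of Apoa4, an apolipoprotein of chylomicrons that the fatty mouse liver also makes. It ran from 0.28 to 1.24 (median 0.71) in cHF and from -1.41 to -0.73 (median -1.09) in cHF+PC, a change of -1.84 ± 0.188 (SE; adjusted p = 3.68e-07), or 3.59-fold lower, and was lower in 7 of 7 slides. The cHF+PC values were tightly grouped and lay below all controls. Apof, an inhibitor of lipid transfer, fell by 0.30 (adjusted p = 0.00215). Apoc3, a brake on triglyceride clearance, had -0.26 ± 0.0683 (0.0286), which became 0.11 and did not pass with a scaling between arrays, and it also lost its call without any 1 of 6 arrays (adjusted p up to 0.0942). Mttp, which lipidates VLDL, had -0.24 ± 0.094 (0.155) and Apob 0.081 ± 0.345 (0.935).

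Of 15 genes of triglyceride synthesis 1 rose (Agpat5), and of 23 genes of phosphatidylcholine metabolism 1 rose (Chdh) and 1 fell, against 3.94% of all genes that passed. Agpat5 lost its call without any 1 of 11 arrays and Chdh without any 1 of 6, and none of the 3 passed with a scaling between arrays. Pcyt2, of the phosphatidylethanolamine branch, fell by 0.27 (adjusted p = 0.0153). Pemt, which methylates phosphatidylethanolamine to phosphatidylcholine, was at -0.048 ± 0.047 (0.64, with values on 6 cHF and 5 cHF+PC arrays), and Pcyt1a, of the main choline route, at -0.12 ± 0.0674 (0.336). None of 16 genes of lipid droplets and lipases passed, against 3.94% of all genes. Cidec, a protein that fuses droplets, had -1.36 ± 0.457 (0.0901), with cHF livers from -2.92 to -0.062 (median -1.06) and cHF+PC livers from -3.43 to -1.86 (median -2.41), and its other probe changed by -0.35. The droplet coat gene Plin2 was at -0.11 ± 0.171 (0.797). A further droplet gene, Hsd17b11, was not tested because outlier marks left a value on 0 of the 29 arrays. With those spots kept, it ran from -0.68 to -0.34 in cHF and from 0.10 to 0.34 in cHF+PC, a change of 0.75 ± 0.0683 (SE; adjusted p = 4.17e-08).

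The opposite movement was in the omega-hydroxylases. Of the 11 genes of this list, which are 10 Cyp4 genes and the fatty aldehyde dehydrogenase Aldh3a2, 7 rose and none fell, against 1.8% of all genes that rose, and the median change was 0.84. With median centring 3 rose (median 0.88), and with a scaling between arrays 4 (median 0.999). Cyp4a10, which starts the omega-oxidation of fatty acids, ran from -2.08 to -1.29 (median -1.60) in cHF and from -0.14 to 0.41 (median 0.088) in cHF+PC, a change of 1.77 ± 0.151 (SE; adjusted p = 1.16e-08), or 3.41-fold. Cyp4a31 changed by 1.65 ± 0.129 (SE; adjusted p = 2.12e-09) and Cyp4a32 by 1.43 ± 0.123 (SE; adjusted p = 1.55e-08). In all 3 genes every cHF+PC liver lay above every cHF liver, and all were higher in 7 of 7 slides. Their probes lie within 1 cluster of chromosome 4, from chr4:115198463-115198522 for Cyp4a10 to chr4:115294852-115294911 for Cyp4a32 in mm9, and can bind the transcripts of relatives, so the genes are not independent readings. Cyp4f15, of another subfamily, changed by 0.51 ± 0.0611 (SE; adjusted p = 7.3e-06).

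Cyp4a14, the gene of this family best known as a target of PPAR-alpha, had the largest change of the list. Its probe was marked as an outlier on 5 of 7 cHF and 2 of 8 cHF+PC arrays. On the arrays that remained the change was 2.69 ± 0.563 (SE; adjusted p = 0.00906), and it was lost without cHF replicate 1 (adjusted p = 0.236). With all spots kept, the 7 cHF livers ran from -4.10 to -1.30 and the 8 cHF+PC livers from -0.64 to 0.39, a change of 2.51 ± 0.308 (SE; adjusted p = 1.33e-05). The deposited Cy5 intensities of its spots were 5599 to 36935 in cHF and 68094 to 116240 in cHF+PC, so the groups do not overlap on that scale either.

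Beside omega-hydroxylation, genes of peroxisomal oxidation rose in smaller steps. Of 25 tested, 5 rose and none fell, against 1.8% of all genes that rose, and the median of the list was 0.13. With median centring 0 rose and with a scaling between arrays 2. Ehhadh, the bifunctional enzyme of the peroxisomal spiral, ran from -1.30 to -0.64 (median -0.90) in cHF and from -0.14 to 0.70 (median 0.17) in cHF+PC, a change of 1.11 ± 0.114 (SE; adjusted p = 3.68e-07). No other member rose by more than 0.5. Eci2, an enoyl-CoA isomerase, rose by 0.40 ± 0.0818, the membrane channel gene Pxmp2 by 0.38 ± 0.0668 and malonyl-CoA decarboxylase (Mlycd) by 0.27 ± 0.0606. On a separate list of acyl-CoA thioesterases and synthetases, 2 of 18 genes rose, against 1.8% of all genes, and 0 with a scaling between arrays. Its thioesterase Acot1 rose by 0.72 ± 0.153 (adjusted p = 0.00666), with overlapping groups.

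In mitochondrial oxidation 16 of 17 genes had a higher mean, with a median of 0.16, and 2 rose (Acadl and Etfb), against 1.8% of all genes. Acadl lost its call without any 1 of 12 arrays and Etfb without any 1 of 3. In the list, 0 rose without cHF replicate 1 or without cHF replicate 2, and 0 with a scaling between arrays. Cpt1a, the gate for fatty acids into mitochondria, was at 0.046 ± 0.0822 (adjusted p = 0.828). Hadhb, of the trifunctional protein, was left untested by outlier marks, and with those spots kept it changed by 0.27 ± 0.0684 (adjusted p = 0.0223). Ppara itself was at 0.19 ± 0.118 (0.42). Creb3l3, a liver factor that acts with Ppara in fasting, rose by 0.30 ± 0.0717 (0.0153). Pparg, whose product is low in lean liver and promotes lipid storage, fell, from -0.002 to 0.66 (median 0.58) in cHF and from -1.08 to 0.20 (median -0.10) in cHF+PC, a change of -0.74 ± 0.182 (SE; adjusted p = 0.0183) with overlapping groups.

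**Figure D3:**
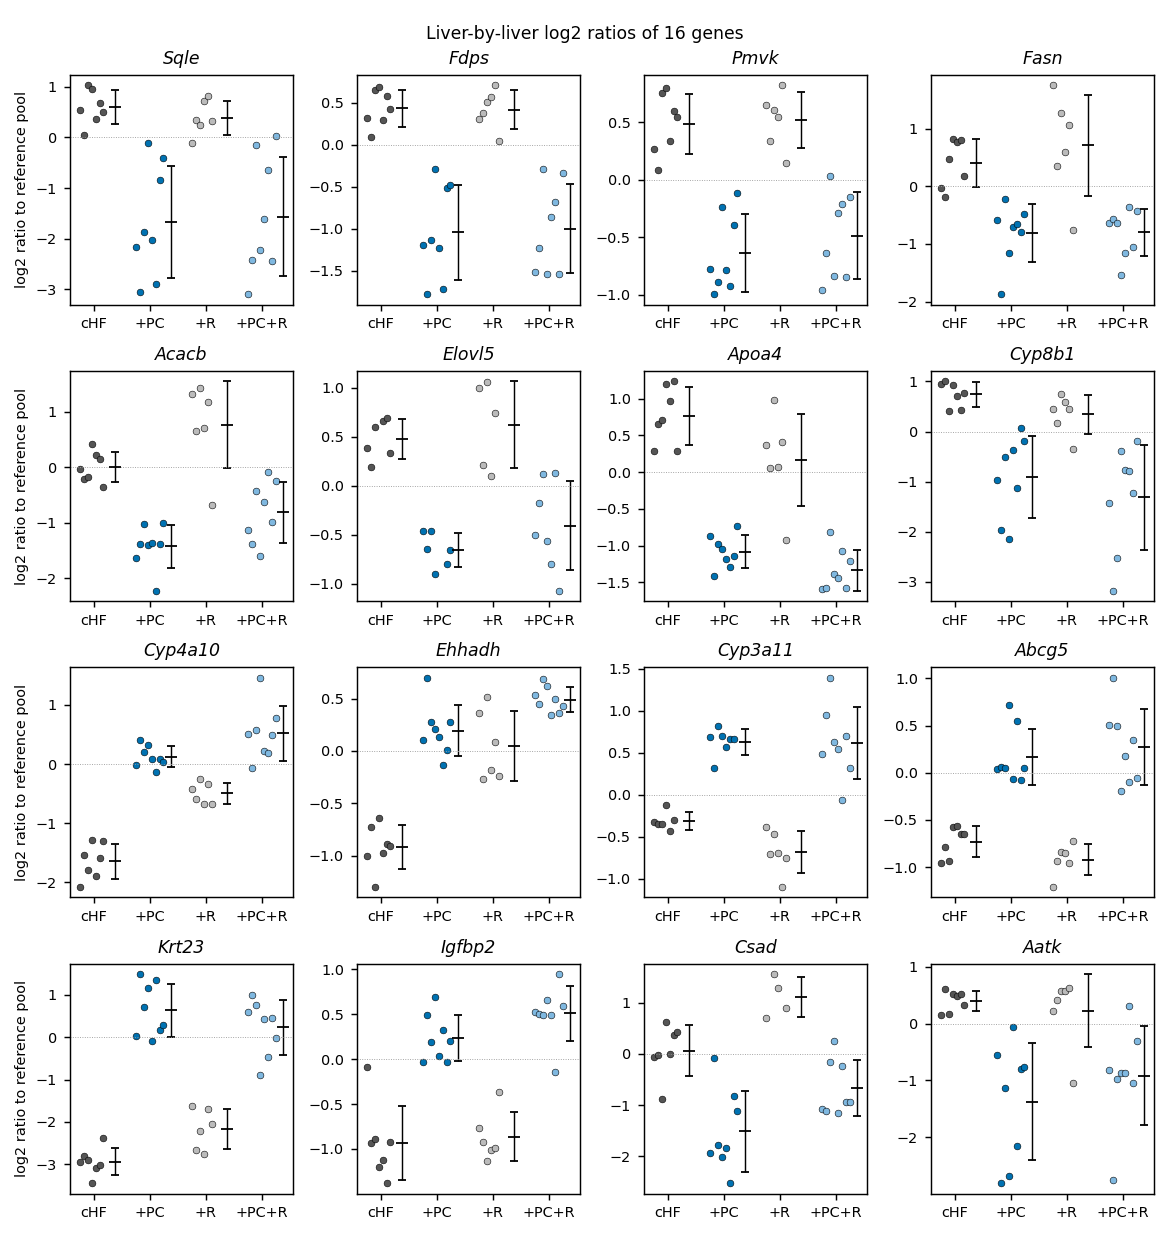
Log2 ratio to the reference pool of 16 genes in each liver of the 4 diets (points, in order of replicate number within a group), with the group mean and SD beside them as a bar; +PC, +R and +PC+R are added to cHF. Krt23, Cyp4a10, Cyp3a11 and Abcg5 show every +PC liver above every cHF liver, and Sqle, Acacb and Apoa4 every +PC liver below.

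Several cytochromes of drug and steroid metabolism rose as well. Of 33 Cyp1, Cyp2 and Cyp3 genes (with their reductase Por) 29 had a higher mean, 7 rose and none fell, against 1.8% of all genes that rose, and the median was 0.36. None passed with median centring (median 0.37) or with a scaling between arrays (median 0.57). A further gene of the list, Cyp2d40, was left untested by outlier marks. With those spots kept, it went the other way, with a change of -0.73 ± 0.181 (adjusted p = 0.0178). Cyp3a11, the main drug-metabolising form in mouse liver, ran from -0.43 to -0.12 (median -0.34) in 6 cHF livers and from 0.32 to 0.82 (median 0.66) in 7 cHF+PC livers, a change of 0.94 ± 0.146 (SE; adjusted p = 0.000328). Cyp3a16, Cyp3a25 and Cyp3a59 changed by 0.87, 0.63 and 0.78 (adjusted p from 2.38e-05 to 0.00138). The groups did not overlap in any of these 4, whose probes lie together on chromosome 5 between 146197274 and 146920697 in mm9 and may bind each other's transcripts. Cyp2a4, a steroid 15-alpha-hydroxylase, spread widely in cHF+PC, from -0.54 to 1.82 (median 0.16), against from -1.66 to -0.63 (median -0.77) in cHF, a change of 1.25 ± 0.302 (SE; adjusted p = 0.0153). The receptor Nr1i2 (PXR), which controls Cyp3a genes, rose by 0.46 ± 0.0902 (0.0036), and Abcc3 and Slco1a4, transporters of organic anions, rose by 0.48 and 0.55. The call of Slco1a4 was lost without any 1 of 7 arrays (adjusted p up to 0.077).

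Of 32 conjugating enzymes 3 rose and 2 fell, against 1.8% and 2.14% of all genes. Gstt2, a theta-class glutathione transferase, rose by 1.00 ± 0.139 (7.55e-05) and the glucuronosyltransferase Ugt2b35 by 0.61 ± 0.0912 (0.000258), while Gstm2 fell by 0.60 (0.0138). Among 29 steroid, retinoid and aldehyde dehydrogenases 5 rose and 1 fell, against 1.8% and 2.14% of all genes. Only 2 or 3 rose when any 1 array other than cHF replicates 2 and 4 and cHF+PC replicate 6 was left out. With a scaling between arrays 0 rose. Hsd17b6, which oxidises androgen metabolites and retinol, rose by 1.15 ± 0.198 (0.000944), and Rdh11, a retinal reductase, fell by 0.89 (9.16e-05), each with no overlap of the diets.

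Of 13 genes of bile acid synthesis 2 fell and none rose, against 2.14% of all genes that fell. Cyp8b1, which directs synthesis to cholic acid, ran from 0.40 to 1.00 (median 0.76) in cHF and from -2.15 to 0.072 (median -0.74) in cHF+PC, a change of -1.64 ± 0.354 (SE; adjusted p = 0.00707). Cyp7a1, the rate-limiting enzyme, ran from -0.48 to 1.13 (median 0.40) and from -2.15 to -0.028 (median -0.78), a change of -1.13 ± 0.297 (SE; adjusted p = 0.0278). Its groups overlapped, and its call was lost without any 1 of 5 arrays (adjusted p up to 0.0685). The bile acid receptor Nr1h4 (FXR) was at -0.20 ± 0.0987 (0.292) and its target Nr0b2 (SHP), a repressor of Cyp7a1, at 0.33 ± 0.127 (0.155).

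In glucose metabolism 21 of 27 genes had a lower mean, and 2 fell (Pklr and Ldha) and 1 rose, against 2.14% and 1.8% of all genes. Ldha lost its call without any 1 of 7 arrays, and its other probes changed by only -0.14 and -0.24. Pklr, the liver pyruvate kinase, changed by -0.80 ± 0.167 (SE; adjusted p = 0.0056) with no overlap of the groups, and Pdk2, which inhibits pyruvate dehydrogenase, rose by 0.28 ± 0.0625 (0.00926). Pck1 and G6pc, of glucose production, had 0.26 ± 0.313 and -0.67 ± 0.272 and did not pass (adjusted p = 0.721 and 0.173). Csad, the decarboxylase that makes taurine, which is joined to bile acids, ran from -0.89 to 0.63 (median -0.01) in cHF and from -2.53 to -0.085 (median -1.80) in cHF+PC, a change of -1.58 ± 0.288 (SE; adjusted p = 0.00198) in which cHF+PC replicates 2 and 7 lay inside the cHF range. Of 31 genes of the urea cycle and amino acid catabolism 5 rose and none fell, against 1.8% of all genes that rose. Of these, 2 rose without any 1 of cHF replicates 3 and 5 and cHF+PC replicate 4, and 3 without any 1 of cHF replicate 6 and cHF+PC replicates 6 and 8, and none with median centring or with a scaling between arrays. The alanine transaminase Gpt had the smallest p of these, with 0.40 ± 0.069 (0.000944). Aass, of lysine breakdown, was left untested by outlier marks and changed by 0.51 ± 0.0807 with the spots kept (adjusted p = 0.000314).

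The largest change of all named genes was outside metabolism. Krt23 encodes a type I keratin, an intermediate filament of epithelia. It ran from -3.45 to -2.39 (median -2.95) in cHF and from -0.092 to 1.49 (median 0.50) in cHF+PC, a change of 3.58 ± 0.263 (SE; adjusted p = 9.07e-10), or 12-fold, and the within-slide differences were 2.67 to 4.44. No other of the 4 keratins tested passed. Its probe lies at chr11:99339393-99339452 in mm9. Igfbp2, a secreted binding protein of IGF, rose by 1.17 ± 0.155 (3.78e-05), with cHF replicate 1 at -0.086 and the other controls from -1.38 to -0.89. Trib3, a pseudokinase that binds Akt, rose by 1.27 ± 0.268 (0.00597), and the small Maf factor Maff by 1.03 ± 0.236 (0.0109), both with wide cHF+PC ranges, from -0.95 to 1.24 (median 0.40) and from -0.80 to 1.56 (median 0.45).

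Several of the strongest falls are also in genes with no place on a lipid list. Aatk, a kinase first described in apoptosis, ran from 0.16 to 0.61 (median 0.49) in cHF and from -2.81 to -0.065 (median -0.97) in cHF+PC, a change of -1.77 ± 0.375 (SE; adjusted p = 0.00597). Dntt, the terminal transferase, ran from 0.39 to 1.03 (median 0.84) and from -1.41 to -0.21 (median -0.56), a change of -1.40 ± 0.159 (SE; adjusted p = 3.02e-06), and Tlr12, a Toll-like receptor, changed by -1.36 ± 0.193 (SE; adjusted p = 9.12e-05). None of the 3 had overlapping groups. The water channel Aqp8 changed by -1.30 ± 0.286 (SE; adjusted p = 0.00785) and the proteoglycan Gpc1 by -1.29 ± 0.323 (SE; adjusted p = 0.0205), with overlap. Gpc1 lost its call without cHF replicate 3 (adjusted p = 0.051). Clstn3, a calsyntenin, changed by -1.26 ± 0.351 (SE; adjusted p = 0.0396) and lost its call without any 1 of 10 arrays (adjusted p up to 0.101).

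Of 21 genes of MHC and antigen presentation 4 fell, all of class I, against 2.14% of all genes that fell, and 4 with a scaling between arrays. H2-K1 fell by 0.29 (0.00068), and H2-Q1, H2-Q7 and H2-Q10 by 0.74, 0.26 and 0.51 (adjusted p from 0.00303 to 0.00882). These genes are near copies of each other, so their probes may share signal. Of 31 interferon-stimulated genes 3 fell and none rose, against 2.14% of all genes that fell, with Oasl1 at -0.68 ± 0.147 (0.00687). None passed with median centring or with a scaling between arrays. Of 23 chemokines and cytokines 1 rose, Ccl9, by 0.70 ± 0.203 (0.049), against 1.8% of all genes that rose. That call did not hold when any 1 of 9 arrays was left out. None of 34 complement and coagulation genes passed, against 3.94% of all genes. Of 25 acute phase genes 1 rose, against 1.8% of all genes, and 0 with a scaling between arrays. It was Lbp, which binds bacterial lipopolysaccharide, with a change of 0.29 ± 0.069 (0.0136).

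Markers of the cells a liver sample can hold are set against the 3.94% of all genes that passed. Of 13 hepatocyte markers 1 fell, Ttr, with the others not past the threshold, and the mean log2 ratio of the list was 0.16 to 0.32 in cHF and 0.11 to 0.62 in cHF+PC. None of the 18 Kupffer cell and macrophage markers passed, with list means of -0.30 to 0.19 in cHF and -0.41 to 0.15 in cHF+PC. None of 5 neutrophil, 9 T and NK cell, 5 B and plasma cell, 8 cholangiocyte and 4 erythroid markers passed. Of 13 endothelial, 11 stellate and 4 pancreatic acinar markers 1 each fell (Cdh5, Lrat and Cela1). Of 5 adipocyte markers 2 were tested and neither passed, with list means of -2.49 to -1.36 in cHF and -3.24 to -1.46 in cHF+PC. Their part in the changes above was not tested.

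The order of the livers was not the same for all genes. For Sqle, cHF+PC replicates 2 and 6 were lowest and replicate 4 nearest to the controls. Krt23, in contrast, was 0.018, 1.49, 0.71, 1.17, -0.092, 1.34, 0.18 and 0.28 in cHF+PC replicates 1 to 8, so that replicates 2, 4 and 6 were highest. Aatk was -0.56, -2.81, -1.14, -2.69, -0.065, -2.15, -0.80 and -0.76 in the same order, with the same 3 livers lowest. Cyp8b1 was -0.97, -1.97, -0.51, -2.15, -0.38, -1.14, 0.072 and -0.18, again with replicates 4, 2 and 6 lowest. Replicate 4 thus lay near the controls for the cholesterol enzymes and far from them for Krt23, Aatk and Cyp8b1. These genes were picked for this description after their values were seen. Over the 103 named genes that passed with values in all 8 cHF+PC livers, replicate 2 was the liver farthest from the cHF mean for 43, replicate 4 for 26 and replicate 6 for 17, and each other liver for 6 or fewer.

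**Figure D4:**
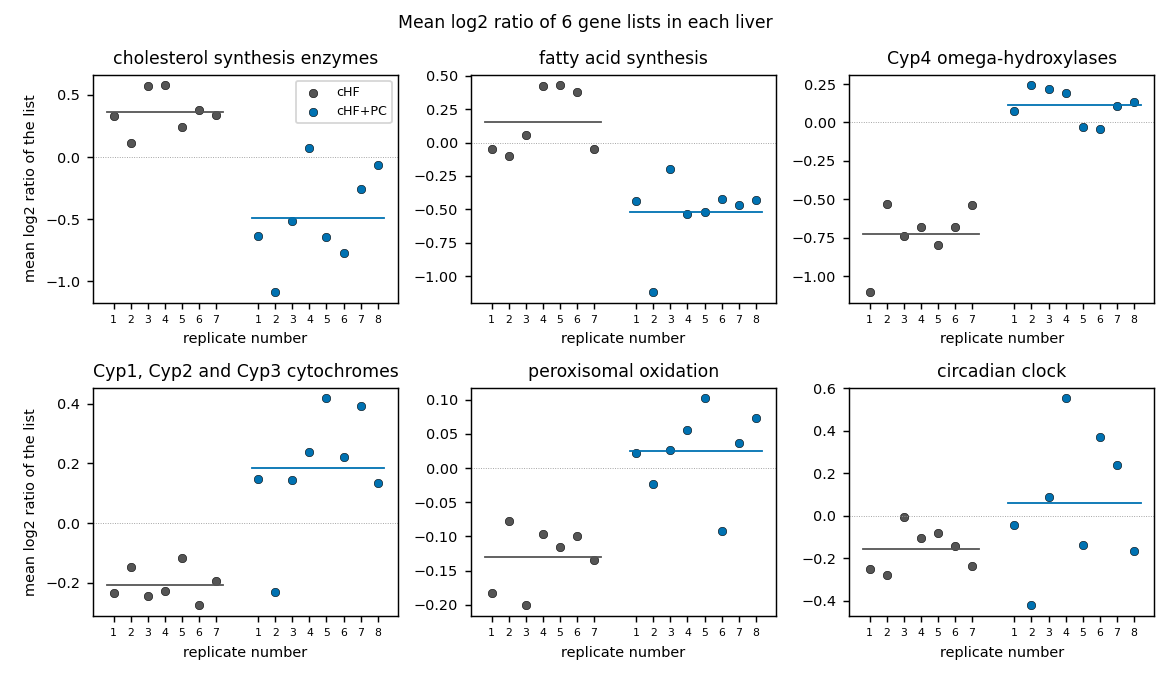
Mean log2 ratio to the reference pool over the tested members of 6 gene lists in each liver, by replicate number, with a line at the group mean (cHF grey, cHF+PC blue). The groups separate for the cholesterol, fatty acid synthesis and Cyp4 lists, and the clock genes of cHF+PC spread from -0.42 to 0.55.

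The clock genes, whose mRNA cycles over the day, were -0.045, -0.42, 0.088, 0.55, -0.14, 0.37, 0.24 and -0.17 on average in cHF+PC replicates 1 to 8, and -0.25, -0.28, -0.0057, -0.11, -0.08, -0.14 and -0.24 in cHF replicates 1 to 7. The cHF+PC livers thus spread further, with replicate 4 highest and replicate 2 lowest. Of 15 clock genes 1 rose, against 1.8% of all genes. It was Cry2, a repressor of the clock, with a change of 0.29 ± 0.0829 (0.0462), and its other probe changed by 0.16. The call of Cry2 was lost without any 1 of 11 arrays (adjusted p up to 0.12). The times at which the livers were taken are not given in the sources used here, and the part of clock time in the other results was not tested.

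The same addition was also made on top of rosiglitazone, in livers that share no array with the comparison above, although all 29 arrays share the estimate of the spread. Between cHF+PC+R and cHF+R, 644 genes rose (3.31%) and 749 fell (3.85%), 1393 or 7.16% in all. Of the 767 genes above, 335 (43.7%) passed there in the same direction and 0 in the opposite one. They are 24.0% of the 1393. In 735 of the 767 (95.8%) the sign was the same, compared with 66.3% of all genes tested. Of 20 cholesterol enzymes 13 fell there, with a median of -0.70, and Sqle changed by -1.96 ± 0.444 (adjusted p = 0.00666). Krt23 changed by 2.40 ± 0.275 (2.45e-06), Cyp4a10 by 1.01 ± 0.158 (0.000158) and Apoa4 by -1.49 ± 0.196 (1.82e-05).

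Some genes had unlike sizes in the 2 settings. Trib3 had a change of 1.27 without and 0.18 with rosiglitazone, H2-Q1 by -0.74 and 0.0083, Elovl2 by -0.49 and -0.11, and Cyp7a1 by -1.13 and -2.11. The difference between the 2 settings passed for none of them (adjusted p = 0.648, 0.499, 0.669 and 0.726). It passed for 0 of the 19463 genes by limma (0% of genes, 1292 at an unadjusted p under 0.05), and for 3 with array weights. The 5 genes with the smallest p were Fabp5l2, Cyp2c37, Tlcd5, Smcp and Fabp5. Cyp2c37, a cytochrome P450, had 0.30 and 1.35, and Fabp5, a fatty acid-binding protein, had 0.058 and -1.59 (adjusted p of the difference 0.154 and 0.166).

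**Figure D5:**
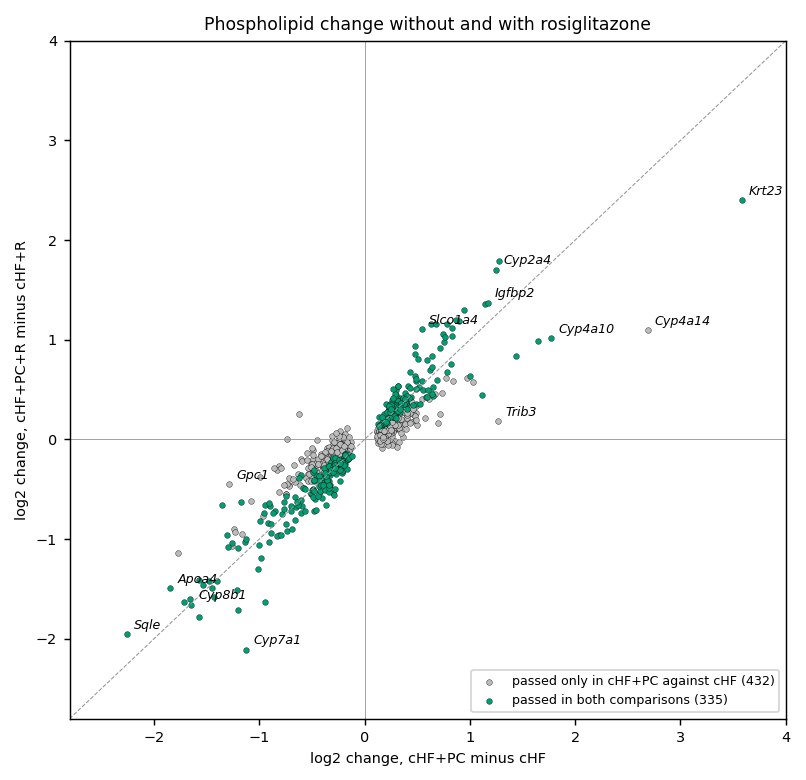
Log2 change with phospholipids on the high-fat diet alone (x axis, cHF+PC minus cHF) and on top of rosiglitazone (y axis, cHF+PC+R minus cHF+R) for the 767 genes that passed in the first, green where they passed in both (335). Most points lie near the dashed line of equal change, and Krt23, Cyp4a10 and Cyp4a14 lie below it on the right.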

How the data were processed

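Liver RNA of 29 mice was measured on 2-colour Agilent arrays. Per the file headers, the deposited files hold spot intensities and local background of each channel, made with Agilent Feature Extraction 10.5.1.1, which the submitters' processing notes also name. The authors' deposited value table holds log2 values, 1 column per array. How it was normalized was not stated, and it served as an alternative.

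Intensities were background-corrected with normexp (offset 50) and normalized by loess within arrays in limma 3.58.1 (R 4.3.3; data.table, version 1.17.8). Control spots and spots marked as outliers were left out. Of 39429 probes, 23930 were kept, each with 6 or more arrays on which Cy5 was well above background and 20 or more with a value. A gene was read from its brightest probe, which gave 19463 genes, 3775 of them with several probes. Symbols were updated through RefSeq, and 3537 genes keep the name in the file.

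limma's moderated test was fitted to 4 group means over 29 arrays, with Benjamini-Hochberg adjustment over all genes and a threshold of 0.05. All adjusted p-values come from it. The labels number the livers of a diet as replicates, and the p-values measure the spread between these samples. Same-numbered livers did not pair (correlations of -0.11 to 0.12).

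Named genes were those that passed with the largest change (15 in each direction), the 4 members of a list with the lowest adjusted p, a set of anchor genes, and the 5 of smallest p for the difference between settings. Predicted genes were not named, and some members of the lists are counted but not reported here. The members and lists were chosen with earlier results of these data known. On simulated data for cHF+PC against cHF over 19463 genes, 74% of changes of 0.3, 98% of 0.6 and 100% of 1 and 2 (log2) were recovered, and 10 unchanged genes were called. The simulated noise was drawn separately for each gene and array, so errors shared across an array or slide were not in it. The number of arrays limits the precision.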

Additional observations from a re-analysis of the deposited data

Results flagged for a closer look

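In 277 groups of livers tested over the named genes, 19 held 1 liver that stood far from the others by Dixon's ratio of gap to range, and chance gives about 1 in 20 groups. All values are log2 ratios to the reference pool. In cHF replicate 1, Cd36 was -1.73, Cyp2a4 was -1.66 and Igfbp2 was -0.086. In cHF replicate 2, Sardh was -0.033 and Slco1a4 was -0.64. In cHF replicate 3, H2-K1 was 0.31, Mlycd -0.70, Nr1i2 -1.12 and Suox -0.94. In cHF replicate 4, Cyp4a12a was -1.22. Among the livers on phospholipids, replicate 2 had Acly at -0.94, Creb3l3 at 0.59 and Mlycd at 0.19, and replicate 3 had Acaca at -0.18. In cHF+PC replicate 4, Abcg8 was 0.70 and Eci2 was 0.42. In cHF+PC replicate 6, Chdh was -0.24, Fah 0.25 and Mttp -0.56.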

How the results depend on the processing

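The 767 genes that passed between cHF+PC and cHF became 1192 without background subtraction, 10 with median centring, 255 with scaling between arrays, 376 from Cy5 alone and 1238 with array weights. They ranged from 439 to 828 as each array was left out, with 439 without cHF+PC replicate 4 and 486 without cHF replicate 5. Of the calls, 45.8% were higher, against 55.7% with scaling and 56.9% with array weights. The 1393 genes of cHF+PC+R against cHF+R became 52 with median centring, 74 with scaling, 629 from Cy5 alone and 777 with only the arrays of those groups. The difference between the settings passed for 3 genes with array weights. With the replicate block, 871 genes passed, and with the slide as a block 598. Keeping outlier spots and choosing genes anew, an alternative chosen after seeing the data, gave 827 of 19635. The median of the MHC list turned to 0.0017 with array weights and ran from -0.051 to 0.0011 as each array was left out (0.0011 without cHF+PC replicate 7). That of the dehydrogenases ran from -0.0059 to 0.088 in the same way (-0.0059 without cHF+PC replicate 5). Apoc3 turned to 0.11 with scaling. Of 110 named calls, 6 held with median centring, 30 with scaling and 108 in the deposited table. The cause was not tested.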
